A study of Homo sapiens with 5 samples.

Results

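The stretch of 28S ribosomal RNA between positions 2001 and 3000 held 15 of the 110 rRNA positions, and 15 of the 67 positions of 28S, at which ribose methylation was measured. The rule that chose them used only their position number, but the choice was made with earlier results of these data known. The measurements came from RiboMethSeq of total RNA from PaTu cells, which are established human cells derived from pancreatic cancer. There were 2 libraries with the label ADAR1 (#1 and #2), 1 library with the label ADAR2 #1, and 1 each with the labels Mock and SCR. ADAR1 and ADAR2 are RNA editing enzymes that deaminate adenosines within double-stranded RNA to inosines. The labels give the same cell line for all 5 libraries. They do not say how either gene was manipulated, or whether #1 and #2 differ in culture or in reagent. Mock and SCR, the libraries that carry no ADAR label, served together as the reference. The labels do not say whether the libraries are separate cultures. The p-values therefore measure the spread between these samples alone, and that spread may be technical.

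A methyl group on the 2′ oxygen of a ribose protects the bond that follows it from alkaline hydrolysis. RiboMethSeq counts the ends of hydrolysed fragments, which are scarce at a methylated nucleotide. Each value is a methylation level, a fraction from 0 (no protection) to 1 (full protection). Read counts are not part of the table, and the depth behind a level is therefore unknown. In human rRNA the methyl group is placed by fibrillarin, a methyltransferase that works in a particle with a box C/D small nucleolar RNA (snoRNA). The snoRNA base-pairs with the rRNA, and the rRNA nucleotide that pairs with the fifth snoRNA base before a D or D′ box (usually CTGA) is the one methylated. Most human box C/D snoRNAs are cut out of introns of host genes, many of which encode ribosomal proteins.

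The 15 positions lay in 2 dense groups. The first held 8 positions from 2351 to 2424, a span of 73 nucleotides, and the second held 7 positions from 2787 to 2876, a span of 89 nucleotides. Between the groups were 363 nucleotides with no listed position. The nearest listed positions outside the stretch were 1881, which lay 470 nucleotides before it, and 3627, which lay 751 nucleotides after it. In the first group, 2363, 2364 and 2365 are consecutive nucleotides and 2422 and 2424 are 2 nucleotides apart. These 5 positions had another listed position within 6 nucleotides, as had 20 of the other 52 positions of 28S. A RiboMethSeq score usually compares a position with its flanking positions, so levels of such close positions may not be independent. The window used for these levels is not given in the sources at hand. In the second group every position was at least 9 nucleotides from the next.

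The deposited table names no guide, and the guides given here are background knowledge. SNORD24 guides 2351 and 2365, SNORD76 guides 2363, SNORD68 guides 2401, SNORD5 guides 2422 and SNORD6 guides 2424. In the second group SNORD99 guides 2787, SNORD55 guides 2804, SNORD95 guides 2815 and 2824, SNORD34 guides 2837, and the sister snoRNAs SNORD50A and SNORD50B guide 2861 and 2876. No guide is named here for 2364 and 2415. Of these 11 snoRNAs, 9 were found by symbol in the GENCODE release used here (GRCh38), and 6 are shown, those of the positions with the widest differences between libraries and of the pairs compared below. All are written 5′ to 3′ in DNA letters on the strand of the snoRNA. SNORD5 (chr11:93733228-93733300, minus strand) and SNORD6 (chr11:93731502-93731574, minus strand) both lie within TAF1D. In them the capitals mark the longest run of bases that both share, 12 bases, which was present in 3 of 955 annotated snoRNA transcripts, the same pair included.
SNORD5: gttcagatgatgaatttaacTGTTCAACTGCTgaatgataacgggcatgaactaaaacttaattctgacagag
SNORD6: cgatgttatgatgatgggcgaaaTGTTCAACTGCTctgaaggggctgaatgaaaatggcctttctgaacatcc
In the next 4 the capitals mark every CTGA, searched on the snoRNA strand only. A CTGA occurred in 71.2% of the annotated snoRNA transcripts of any length, and a match is a description, not a shown box. SNORD24 (chr9:133349396-133349470, plus strand) lies within RPL7A, SNORD68 (chr16:89561434-89561517, plus strand) within RPL13, SNORD95 (chr5:181243312-181243379, minus strand) within RACK1 and SNORD50B (chr6:85677589-85677658, minus strand) within SNHG5.
SNORD24: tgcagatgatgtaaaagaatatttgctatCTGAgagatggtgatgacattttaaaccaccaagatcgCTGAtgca
SNORD68: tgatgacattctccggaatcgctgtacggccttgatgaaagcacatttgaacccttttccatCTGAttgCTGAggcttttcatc
SNORD95: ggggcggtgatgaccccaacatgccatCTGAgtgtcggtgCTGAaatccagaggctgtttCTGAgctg
SNORD50B: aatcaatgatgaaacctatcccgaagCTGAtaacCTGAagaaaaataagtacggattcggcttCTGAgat
Each of the 6 was in an intron of most annotated transcripts that span it, for example 7 of 8 for SNORD24, 10 of 12 for SNORD5, 12 of 12 for SNORD6 and 22 of 25 for SNORD95. In SNORD24 the fifth base before either CTGA is G, which pairs with C. In SNORD95 the fifth base is G before the CTGA that starts at base 28, C before the one at base 41 and T before the one at base 61, which pair with C, G and A in that order.

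Most of the 15 positions were highly methylated. Averaged over the 5 libraries, 5 (33.3%) had a level of at least 0.9, against 34.6% of the other 52 positions of 28S, and 4 (26.7%) had a level below 0.8, against 21.2%. Position 2364 had the highest mean of all 67 positions of 28S (0.984), and position 2363, with 0.963, had rank 3. Position 2861 was second lowest (rank 66, mean 0.484), position 2415 had rank 64 (0.559) and position 2876 rank 60 (0.634). The mean level over the 15 positions was 0.814 in ADAR1 #1, 0.843 in ADAR1 #2 and 0.819 in ADAR2 #1, against Mock at 0.815 and SCR at 0.827. The ADAR1 mean exceeded that of Mock and SCR by 0.0076, where the library means of ADAR1 had an SD of 0.0210 (n = 2). ADAR2 #1 lay -0.0016 from the mean of Mock and SCR. Over the other 52 positions of 28S these differences were 0.0106 for ADAR1 and 0.0021 for ADAR2 #1. Over all 110 positions they were 0.0093 and 0.0092. No exact permutation test was run, since 0.333 is the smallest p that 2 libraries against 2 allow.

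**Figure D1:**
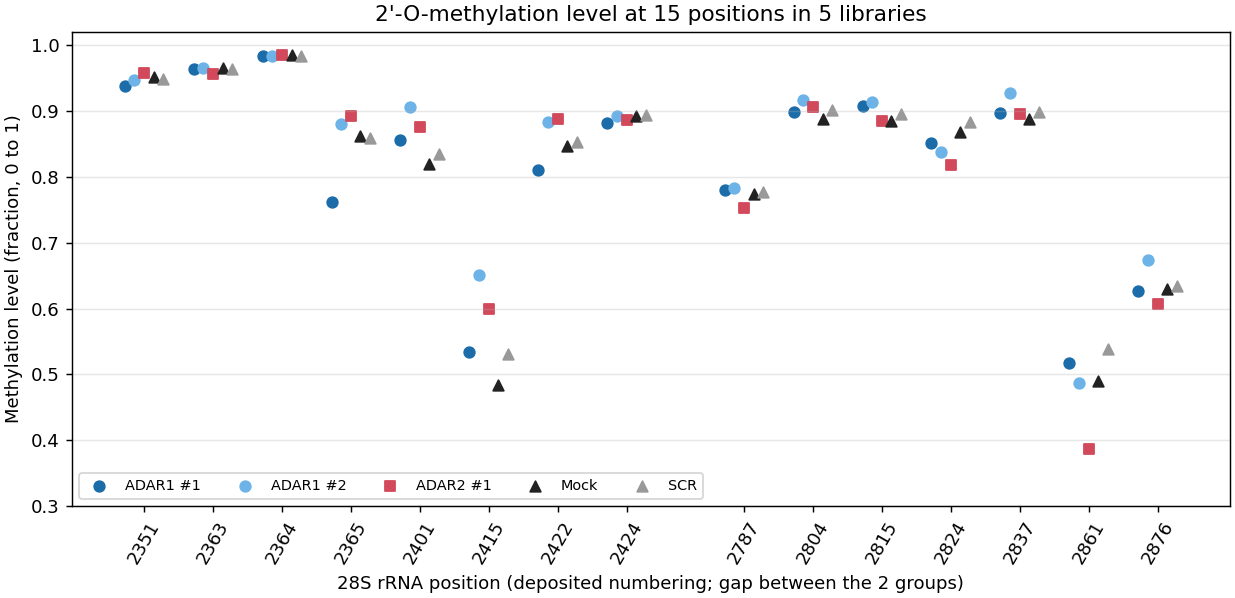
Methylation level (fraction from 0 to 1, axis from 0.3) at the 15 positions of 28S between 2001 and 3000, with 1 point for each of the 5 libraries. Position 2364 had levels between 0.983 and 0.985 in all libraries, whereas 2415 and 2861 had the widest ranges, 0.169 and 0.152.

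The first group opened with 3 positions whose levels spanned at most 0.0196. At 2351, a SNORD24 target, the level was 0.938 in ADAR1 #1, 0.948 in ADAR1 #2 and 0.958 in ADAR2 #1, against Mock at 0.951 and SCR at 0.9497. At 2363, the SNORD76 target, it was 0.964, 0.966 and 0.956 in the same 3 ADAR libraries, against Mock at 0.965 and SCR at 0.964. At 2364 the 5 levels spanned 0.0016, the smallest range of all 110 positions. The next nucleotide did not share this constancy. Position 2365, the other SNORD24 target, was at 0.761 in ADAR1 #1, 0.881 in ADAR1 #2 and 0.892 in ADAR2 #1, against Mock at 0.863 and SCR at 0.8595. ADAR1 #1 was thus below and the other ADAR libraries above both Mock and SCR.

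Position 2401, the SNORD68 target, was above both Mock and SCR in all 3 ADAR libraries. Its level was 0.856 in ADAR1 #1, 0.906 in ADAR1 #2 and 0.877 in ADAR2 #1, against Mock at 0.819 and SCR at 0.835. Position 2415, the partly methylated position of this group, was at 0.533 in ADAR1 #1, 0.652 in ADAR1 #2 and 0.599 in ADAR2 #1, against Mock at 0.483 and SCR at 0.530. All 3 ADAR libraries were again above both, but ADAR1 #1 exceeded SCR by less than Mock and SCR differed from each other. These were the only members of the stretch above both in all 3 libraries (2 of 15), where 27.3% of all 110 positions were.

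The overlapping targets of SNORD5 and SNORD6 differed in how far the libraries spread. At 2422 the level was 0.811 in ADAR1 #1, 0.884 in ADAR1 #2 and 0.888 in ADAR2 #1, against Mock at 0.847 and SCR at 0.854. This is the order of libraries seen at 2365, with ADAR1 #1 below and the other ADAR libraries above both. At 2424 it was 0.882 in ADAR1 #1, 0.892 in ADAR1 #2 and 0.886 in ADAR2 #1, against Mock at 0.893 and SCR at 0.894, a range of 0.0113.

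In the second group, the SNORD99 target 2787 was at 0.780 in ADAR1 #1, 0.783 in ADAR1 #2 and 0.753 in ADAR2 #1, against Mock at 0.775 and SCR at 0.777. The SNORD55 target 2804 was at 0.898 in ADAR1 #1, 0.916 in ADAR1 #2 and 0.906 in ADAR2 #1, against Mock at 0.889 and SCR at 0.902. The SNORD34 target 2837 was at 0.897 in ADAR1 #1, 0.927 in ADAR1 #2 and 0.896 in ADAR2 #1, against Mock at 0.889 and SCR at 0.898. ADAR1 #2 was the highest library at all 3 of these positions, and at 2804 and 2837 ADAR1 #1 lay between Mock and SCR.

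Both SNORD95 targets had ADAR1 libraries outside Mock and SCR, on different sides. Position 2815 was at 0.908 in ADAR1 #1, 0.914 in ADAR1 #2 and 0.885 in ADAR2 #1, against Mock at 0.885 and SCR at 0.896. Position 2824 was at 0.851 in ADAR1 #1, 0.838 in ADAR1 #2 and 0.819 in ADAR2 #1, against Mock at 0.869 and SCR at 0.883. All 3 ADAR libraries were below both at 2824. Position 2424 was the other member below both in all 3 libraries (2 of 15, where 9.09% of all positions were), by at most 0.0111 from the mean of Mock and SCR.

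The targets of SNORD50A and SNORD50B ended the stretch. Position 2861 was at 0.516 in ADAR1 #1, 0.487 in ADAR1 #2 and 0.386 in ADAR2 #1, against Mock at 0.489 and SCR at 0.539. ADAR2 #1 stood apart from the other 4 libraries there, and Mock and SCR differed by 0.0494, their widest difference among the 15 positions. Position 2876 was at 0.627 in ADAR1 #1, 0.674 in ADAR1 #2 and 0.607 in ADAR2 #1, with 0.630 in Mock and 0.634 in SCR as reference. ADAR1 #2 was above and the other ADAR libraries below both.

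**Figure D2:**
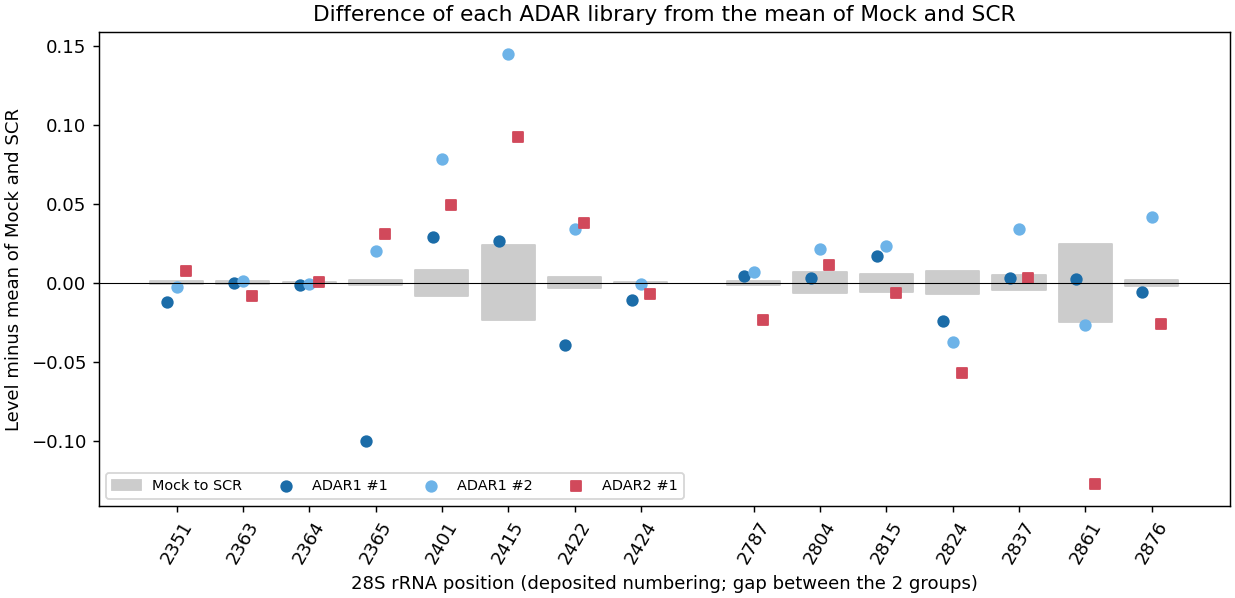
Level of each ADAR library minus the mean of Mock and SCR at the 15 positions, with grey boxes from Mock to SCR. Both ADAR1 libraries and ADAR2 #1 lay above the box at 2401 and 2415 and below it at 2824, and ADAR2 #1 lay -0.128 from the mean at 2861.

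The first comparison set the ADAR1 libraries against Mock and SCR. In limma with Benjamini-Hochberg adjustment over all 110 positions, 0 of the 15 members passed an adjusted p of 0.05, and 0% of all positions did. The lowest adjusted p of a member was 0.251, at 2401, where the difference was 0.0536 (95% interval 0.0028 to 0.104), and this was the only member with an unadjusted p under 0.05 (1 of 15, where 19.1% of all positions had one). At 2415 the difference was 0.0858 (-0.0403 to 0.212), at 2815 it was 0.0202 (-0.0050 to 0.0454), and at 2824 it was -0.0310 (-0.0665 to 0.0044). The ADAR1 mean was higher at 8 members, against 63.6% of all positions, and lower at 7, against 36.4%. Both ADAR1 libraries lay outside Mock and SCR on the same side at 8 members, against 50.0% of all positions. Of these 8, positions 2401, 2415, 2787 and 2815 were higher (35.5% of all positions) and 2351, 2364, 2424 and 2824 lower (14.5%). With a mean difference of at least 0.05 as well, 2 members met the rule (10.9% of all positions). Both, 2401 and 2415, were higher (7.27%), and 0 were lower (3.64%). The median difference over the 15 members was 0.00059, and over all positions it was 0.0078.

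Left out in turn, the 2 ADAR1 libraries gave different values. Without ADAR1 #1 the difference was 0.0785 at 2401 and 0.145 at 2415, and without ADAR1 #2 it was 0.0287 and 0.0267. At 2365 it was 0.0198 without ADAR1 #1 and -0.100 without ADAR1 #2, and at 2422 it was 0.0341 and -0.0396, so the direction there depended on the library. Some members passed the test without ADAR1 #1, and some without ADAR1 #2, but the share of all positions that passed in those fits was not determined. In those fits the spread came from the difference between Mock and SCR alone, and the single ADAR1 library was assumed to vary as they do.

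The second comparison set ADAR2 #1 against the reference. In limma 0 of 15 members passed, and 0% of all positions did. Unadjusted p-values under 0.05 were found at 2 members, against 12.7% of all positions. They were 2824, with a difference of -0.0573 (95% interval -0.101 to -0.0139, adjusted p = 0.219), and 2861, with -0.128 (-0.252 to -0.0031, adjusted p = 0.363). At 2415 the difference was 0.0919 (-0.0625 to 0.246) and at 2401 it was 0.0493 (-0.0129 to 0.112). ADAR2 #1 lay outside Mock and SCR at 13 members, against 82.7% of all positions, and by at least 0.05 at 3, against 17.3%. Of these 3, position 2415 was higher (11.8% of all positions) and 2824 and 2861 were lower (5.45%). The mean was higher at 8 members (65.5% of all positions) and lower at 7 (34.5%). The fit gives the lone ADAR2 library the spread of the other groups. Without ADAR1 #1, without ADAR1 #2, and with Mock, SCR and ADAR2 #1 alone, some members passed each time. Those fits took their spread from 1 pair of libraries, and the share of all positions that passed in them was not determined.

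The directions in ADAR2 #1 were divided between the 2 groups of positions. In the first group ADAR2 #1 was above both Mock and SCR at 5 of 8 positions (2351, 2365, 2401, 2415 and 2422) and below both at 2 (2363 and 2424). In the second it was above both at 1 of 7 (2804) and below both at 5 (2787, 2815, 2824, 2861 and 2876). The margin at 2815 was small, with ADAR2 #1 at 0.8846 and Mock at 0.8853. Over all 110 positions, ADAR2 #1 was above both at 51.8% and below both at 30.9%. In the first group ADAR1 #2 was also above both at 5 positions, and below both at 3. There ADAR1 #1 was above both at 2 and below both at 5. In the second group ADAR1 #2 was above both at 5 and below both at 2, and ADAR1 #1 at 2 and 2. Over all positions the shares above and below both were 60.9% and 23.6% for ADAR1 #2, and 48.2% and 34.5% for ADAR1 #1. The mean level of the first group was 0.841 in ADAR1 #1, 0.889 in ADAR1 #2 and 0.880 in ADAR2 #1, against Mock at 0.851 and SCR at 0.859. The mean level of the second group was 0.782 in ADAR1 #1, 0.791 in ADAR1 #2 and 0.7502 in ADAR2 #1, against Mock at 0.775 and SCR at 0.790. ADAR2 #1 thus lay 0.0253 above the mean of Mock and SCR in the first group and -0.0323 from it in the second. Without the member of each group with the largest difference, 2415 and 2861, the values were 0.0157 and -0.0164. With 1 ADAR2 library the difference between the groups was not tested, and the groups were set apart by position alone.

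**Figure D3:**
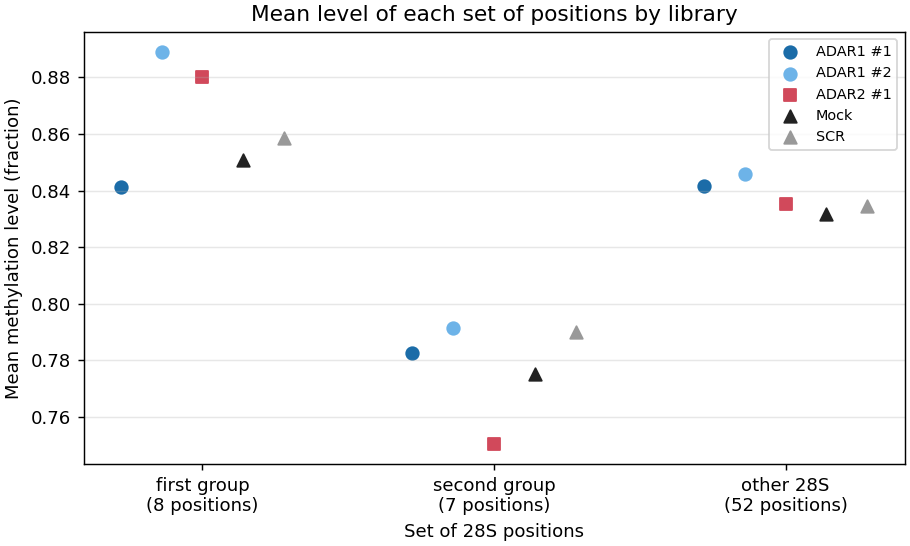
Mean methylation level (fraction, axis from about 0.75) of the first group, the second group and the other 52 positions of 28S, with 1 point for each library. ADAR2 #1 was above Mock and SCR in the first group (0.880) and the lowest library in the second (0.7502), and ADAR1 #1 was the lowest library in the first (0.841).

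The third comparison set the ADAR1 libraries against ADAR2 #1. In limma 0 of 15 members passed, as did 0% of all positions, and 1 member, 2363, had an unadjusted p under 0.05, against 8.18% of all positions. The difference at 2363 was 0.0090 (95% interval 0.000018 to 0.0180, adjusted p = 0.579). The widest difference was at 2861, 0.116 (-0.0090 to 0.240, adjusted p = 0.579), and it was 0.101 without ADAR1 #1 and 0.1302 without ADAR1 #2. At 2365 the difference was -0.0712 (-0.190 to 0.0477), but -0.0113 without ADAR1 #1 and -0.131 without ADAR1 #2. ADAR1 had the higher mean at 10 members and the lower at 5, against 50.0% of all positions each way. With ADAR1 #1 or ADAR1 #2 left out, some members passed the threshold, in fits whose spread again came from Mock against SCR. For these fits, too, the share of all positions that passed was not determined.

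The 2 ADAR1 libraries were compared directly. ADAR1 #2 was higher than ADAR1 #1 at 13 of 15 members, including 8 of 8 in the first group and 5 of 7 in the second, against 66.4% of all positions. They differed by at least 0.05 at 3 members, against 17.3% of all positions, and Mock and SCR at 0, against 0.909%. The ADAR1 differences of this size were all in the first group, with 0.1198 at 2365, 0.118 at 2415 and 0.0737 at 2422. At 3 members (2365, 2422 and 2876), against 23.6% of all positions, one ADAR1 library was above and the other below both Mock and SCR. ADAR1 #1 was the lowest library at 5 members, all in the first group (2351, 2364, 2365, 2422 and 2424), and the highest at none, whereas ADAR1 #2 was the highest at 8 and the lowest at none. Among the other 52 positions of 28S, ADAR1 #1 was lowest at 13 and highest at 17, and ADAR1 #2 was lowest at 5 and highest at 17. Over all 110 positions ADAR1 #1 was lowest at 29 and highest at 25, and ADAR1 #2 was highest at 42 and lowest at 9. The root mean square difference between ADAR1 #1 and ADAR1 #2 was 0.0675 in the first group, 0.0256 in the second and 0.0461 over the other 52 positions. Between Mock and SCR it was 0.0179, 0.0210 and 0.0136 for the same sets. ADAR1 #2 and ADAR2 #1 differed by 0.0224 in the first group and by 0.0506 in the second, where ADAR1 #2 was higher at 7 of 7 positions, against 34 of the other 52 positions of 28S and 69 of all 110.

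Pairs of positions that share a guide, or have guides with a shared run, were compared within each library, where any shift common to the whole library cancels. The pairs were chosen with the levels known. The 2 SNORD95 targets, 9 nucleotides apart, lay 0.0565 apart in ADAR1 #1, 0.0758 in ADAR1 #2 and 0.0661 in ADAR2 #1 (2815 minus 2824), against Mock at 0.0167 and SCR at 0.0133. The ADAR libraries and the reference did not overlap. Of all 105 pairs of members, 36.2% were divided in this way by any margin, however small, so separation alone does not set this pair apart. The 2 SNORD24 targets, 2351 and 2365, lay 0.177 apart in ADAR1 #1, 0.0668 in ADAR1 #2 and 0.0653 in ADAR2 #1, against Mock at 0.0883 and SCR at 0.0901. ADAR1 #1 was on one side and the other ADAR libraries were on the other side of Mock and SCR. The same held for 2422 minus 2424, the SNORD5 and SNORD6 targets, with -0.0716 in ADAR1 #1, -0.0079 in ADAR1 #2 and 0.0017 in ADAR2 #1, against Mock at -0.0464 and SCR at -0.0397. For 2861 minus 2876, the SNORD50A and SNORD50B targets, the values were -0.1101 in ADAR1 #1, -0.187 in ADAR1 #2 and -0.2203 in ADAR2 #1, against Mock at -0.141 and SCR at -0.0957. There ADAR1 #1 lay between Mock and SCR and the other ADAR libraries lay below both.

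**Figure D4:**
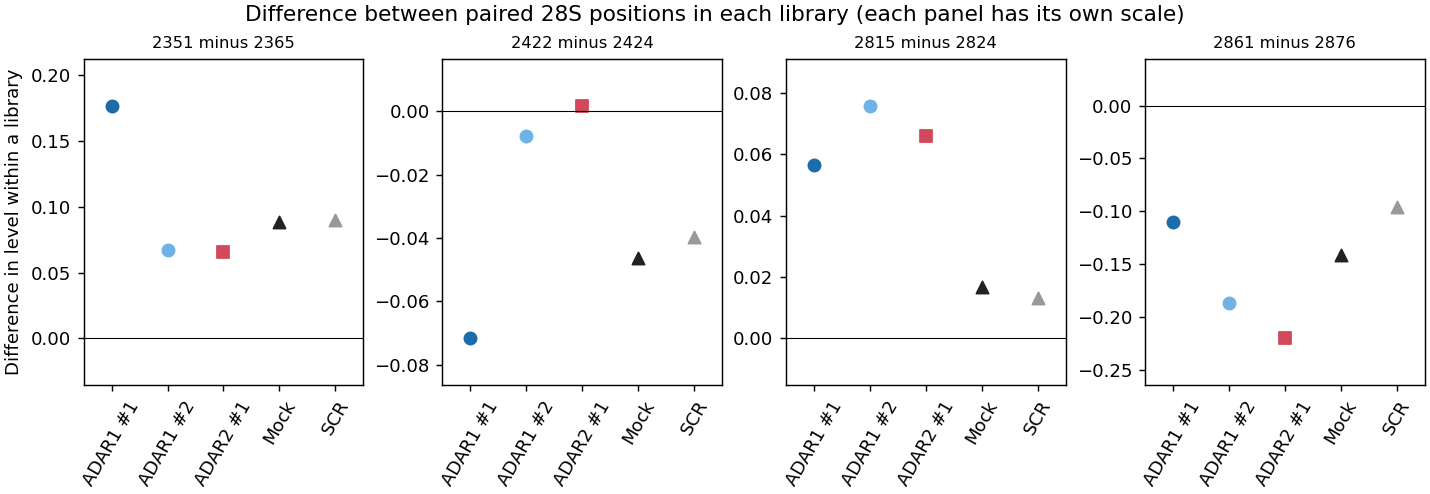
Difference in methylation level between paired positions within each of the 5 libraries, with 1 panel for each pair and a separate vertical scale in each. For 2815 minus 2824 the 3 ADAR libraries lay between 0.0565 and 0.0758 and Mock and SCR at 0.0167 and 0.0133, and in the other 3 panels the ADAR libraries were not all on one side of Mock and SCR.

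By the median range, positions with intermediate levels varied more between libraries than highly methylated positions did. The median range over the 5 libraries was 0.1098 at the 4 members with a mean below 0.8 (2415, 2787, 2861 and 2876) and 0.0295 at the other 11. At the other positions of 28S it was 0.0798 for 11 partly methylated and 0.0322 for 41 highly methylated positions. Position 2787 was an exception, with a mean of 0.773 and a range of 0.02999. Among highly methylated members, 2365 had the widest range, 0.131, followed by 2401 with 0.0868 and 2422 with 0.0773. Each of these was wider than the range of the partly methylated 2876, 0.0672. At the other positions of 28S the widest range was 0.172 among the highly methylated and 0.154 among the partly methylated.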

How the data were processed

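The single table the authors deposited holds, for each position and library, the methylated fraction, from 0 to 1. The tools, per the submitters' processing notes, were Bowtie2 2.3.5.1, SAMtools 1.15.1, Trimmomatic 0.39 and FastQC 0.11.9. For the rRNA reference, its numbering and the score formula, the sources used here give nothing. No read counts were used, so depth and counting error are unknown. All 5 columns carried a sample's title (0 columns unmatched).

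Levels were used as deposited. The model was fitted with limma 3.58.1 (R 4.3.3) to the whole table of 110 positions and 5 libraries in 3 groups (ADAR1, ADAR2 and the reference of Mock and SCR), with 2 residual degrees of freedom and an eBayes prior, with a trend on the mean level, worth 3.41. Two-sided p-values were adjusted by Benjamini-Hochberg over the 110 positions, and 0.05 was the threshold. The 95% intervals come from the same moderated fit. The fit was tested on simulated data. Every member was named. Members more than 100 nucleotides apart started a new group. The members, lists and pairs were chosen with earlier results of these data known. Alternatives were no variance trend, logit-transformed levels (bounds 0.01 and 0.99), median-centred libraries, positions with a mean of at least 0.5, fits of only the compared groups, other size limits (0.02 and 0.1), and each library but ADAR2 #1 left out in turn. Sequences and coordinates of snoRNAs came from GENCODE (GRCh38) and were not joined to the table by coordinates. Figures were drawn with matplotlib 3.10.9.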

Additional observations from a re-analysis of the deposited data

Results flagged for a closer look

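At 3 members both ADAR1 libraries lay on one side of Mock and SCR and ADAR2 #1 on the other, as at 10.0% of all 110 positions. They were 2351, where ADAR1 minus ADAR2 was -0.0147, 2787, where it was 0.0287, and 2815, where it was 0.0264. In limma, with Benjamini-Hochberg adjustment over 110 positions, the adjusted p of this difference was 0.579 at 2351, 0.724 at 2787 and 0.677 at 2815, so none passed. At 2351 ADAR1 #2 lay only -0.0026 from the mean of Mock and SCR. At 2815 ADAR2 #1, at 0.8846, was only just below Mock, at 0.8853.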

How the results depend on the processing

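Counts of members past an adjusted p of 0.05 were 0 for all 3 comparisons with no variance trend, logit levels, median-centred libraries, positions with a mean of at least 0.5, and without Mock or SCR. They ranged from 0 to 7 for ADAR1 minus reference, from 0 to 6 for ADAR2 minus reference and from 0 to 6 for ADAR1 minus ADAR2 when 1 library was left out, and ADAR2 against Mock and SCR alone gave 6. The members outside Mock and SCR by at least 0.05 numbered 2 in ADAR1, but 1 with median-centred libraries, 4 with a limit of 0.02, 0 with 0.1, and 1 to 2 with 1 library left out (1 without ADAR1 #2 or without Mock). In ADAR2 #1 they numbered 3, but 8 with 0.02, 1 with 0.1, and 3 to 4 with 1 library left out. With the limit of 0.05 and all libraries, 10.9% of all positions met the rule in ADAR1 and 17.3% in ADAR2 #1. For the other settings the share of all positions was not determined, so those counts of members have no background. In the fits without Mock or without SCR, the spread came from the 2 ADAR1 libraries alone. Their root mean square difference over the 15 members was 0.0523, against 0.0194 between Mock and SCR. A count of 0 in those fits therefore carries little weight.

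The difference of the mean level ranged from -0.0073 to 0.0224 for ADAR1 and from -0.0072 to 0.0040 for ADAR2 with 1 library left out. Median centring turned the sign at 2363 in ADAR1 (-0.0033), at 2364 in ADAR2 (-0.00058) and at 2424 and 2804 in ADAR1 minus ADAR2 (-0.0018 and -0.0019), and the logit did so at 2422 in ADAR1 (0.0072, logit units). With 1 library left out the sign depended on the library at 11 differences. For ADAR1 these ran from -0.000083 to 0.0013 at 2363 (-0.00022 to 0.0014 without Mock or SCR), -0.100 to 0.0198 at 2365, -0.0396 to 0.0341 at 2422 (-0.0064 to 0.00080 without SCR or Mock), -0.0368 to 0.0126 at 2861 (-0.0268 to 0.0025 without an ADAR1 library) and -0.0058 to 0.0414 at 2876. For ADAR2 they ran from -0.000078 to 0.00084 at 2364 and -0.0018 to 0.0078 at 2837. For ADAR1 minus ADAR2 they ran from -0.0207 to 0.0292 at 2401, -0.0652 to 0.0530 at 2415, -0.0039 to 0.0061 at 2424 and -0.0080 to 0.0101 at 2804. The cause was not tested.

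No paired analysis was possible because ADAR1 and ADAR2 share only the number #1, and Mock and SCR carry none. The table gives no read counts, so what depth limits is unknown. Median intervals of the members reached 0.0355 to either side of an ADAR1 difference and 0.0434 to either side of an ADAR2 difference.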
